A study of Canis lupus familiaris with 186 samples.

Results

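C-type lectins are proteins that share a fold first known as the sugar-binding domain of calcium-dependent lectins, and 9 of their genes were followed across primary canine osteosarcomas: CLEC12A, CLEC2D, CLEC7A, CLEC5A, CLEC10A, CLEC1A, CLEC11A, CLEC3B and CLEC14A. The rows were found by gene symbol, from a list drawn up with earlier results of these tumors known. Of the 37952 genes in the deposited table, 8 rows carried one of these symbols, and CLEC10A had no row and was not analysed. The tumors were appendicular osteosarcomas of pet dogs, biopsied before any treatment, with 93 tumors from the trial COTC021 and 93 from COTC022, 186 in all, each under its own patient number. All tumors share the diagnosis and the absence of prior treatment, breed, age and sex were not used here, and the trial is the only grouping that the sample labels give.

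On leukocytes, C-type lectins act as sensors of microbes and of dying cells. Some carry or recruit activating motifs and signal through the kinase SYK and the adaptor CARD9, and others carry inhibitory motifs that recruit phosphatases such as PTPN6. CLEC7A (Dectin-1) is the beta-glucan receptor of myeloid cells, CLEC5A is an activating myeloid receptor that signals through the adaptor TYROBP, CLEC12A is an inhibitory myeloid receptor, and CLEC2D is the ligand of the lymphocyte receptor KLRB1. Other members belong to vessels and connective tissue: CLEC14A and CLEC1A are endothelial, CLEC11A is a secreted growth factor that promotes bone formation, and CLEC3B (tetranectin) is a secreted plasminogen-binding protein.

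On the canine build GSD_1.0, 4 of the genes lie in one stretch of chromosome 27, at 9831139 to 9872121 for CLEC2D, 10094663 to 10105311 for CLEC12A, 10225032 to 10249251 for CLEC1A and 10260084 to 10288263 for CLEC7A. This stretch of 457.1 kb holds 12 annotated genes, 11 of them protein coding, including CD69, KLRF1, CLEC2B, CLEC12B and CLEC1B. The spans of CLEC1A and CLEC1B overlap by 1173 bases, so reads there may be shared between them. The others lie apart, CLEC5A on chromosome 16 (7027385 to 7054887), CLEC11A on chromosome 1 (106744763 to 106747659), CLEC3B on chromosome 20 (43731532 to 43739811) and CLEC14A on chromosome 8 (16777896 to 16781247).

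Libraries held between 6587631 and 27420857 counts, with a median of 10797162. In the table header 50 libraries are named with a doubled separator, and these doubled-separator libraries had a median of 19440450 counts against 9851681 in the other 136. They comprised 18 tumors from COTC021 and 32 from COTC022, so results are also given within each group of libraries. All 7 osteoblast markers passed the low-count filter, with a summed level between 66.6 and 17073 CPM (counts scaled to a common library total) and a median of 2089 CPM. In bulk tumor RNA, fewer cells of a type and less RNA per cell cannot be told apart.

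The 3 myeloid receptors were detected in most tumors. CLEC12A was measured at 0 to 46.3 CPM with a median of 2.34, and 150 of 186 tumors held at least 10 counts. CLEC7A ranged from 0.327 to 67.0 CPM with a median of 8.63, and 184 tumors held at least 10 counts. CLEC5A ranged from 0.0812 to 82.4 CPM with a median of 3.01, and 165 tumors held at least 10 counts. A count of 0 occurred for CLEC12A in 1 tumor and for CLEC7A and CLEC5A in none. The 10 tumors with the highest value of each gene held 29.2% of all CPM of CLEC12A, 20.5% of those of CLEC7A and 36.6% of those of CLEC5A.

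CLEC2D was far more uneven. Its level ranged from 0 to 243 CPM around a median of 1.30, 121 tumors held at least 10 counts, and 10 tumors had a count of 0. Its highest tumor stood 186-fold above the median, and its top 10 tumors carried 62.2% of its summed CPM, with 6 from COTC021 and 4 from COTC022. Of those 10, 7 were also among the top 10 for CLEC12A and 0 among the top 10 for CLEC7A.

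By the share of the top 10 tumors the endothelial pair was the most even, with CLEC11A close to CLEC14A. CLEC14A ranged from 5.34 to 263 CPM with a median of 34.7 and reached 10 counts in all 186 tumors. CLEC1A ranged from 0.739 to 33.1 CPM with a median of 7.93 and reached 10 counts in 184. The top 10 tumors held 17.7% of the summed CPM of CLEC14A and 14.9% of that of CLEC1A, beside 17.9% for CLEC11A. The highest tumor stood 7.59-fold above the median for CLEC14A, 4.18-fold for CLEC1A and 5.86-fold for CLEC11A.

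The 2 secreted lectins behaved in opposite ways. CLEC11A was measured in every tumor, from 3.16 to 937 CPM with a median of 160. CLEC3B was at a count of 0 in 68 tumors, reached 10 counts in 50 and had a median of 0.138 CPM, yet its maximum was 206 CPM. A total of 82.2% of its summed CPM came from 10 tumors, 3 from COTC021 and 7 from COTC022. CLEC3B was therefore the 1 measured member that did not pass the low-count filter, and the other 7 were tested among 13422 genes.

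**Figure D1:**
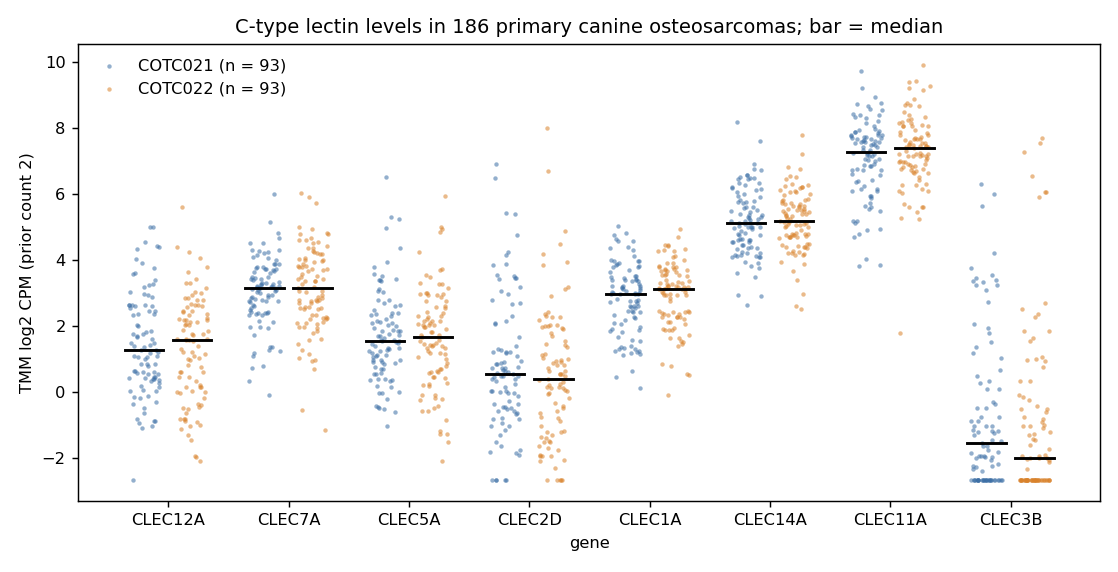
Each point is 1 tumor, the y axis is the TMM-normalized log2 CPM with a prior count of 2, the x axis the gene, colors are the trials (93 tumors each) and bars are medians. CLEC2D and CLEC3B have long upper tails and a row of tumors at the floor, CLEC11A and CLEC14A do not, and the medians of the trials lie close together, on a scale that does not correct for gene length.

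Every member varied more across tumors than the middle gene. The SD of the log2 level was 0.97 for CLEC14A, 1.04 for CLEC1A, 1.17 for CLEC11A, 1.18 for CLEC7A, 1.47 for CLEC5A, 1.58 for CLEC12A, 2.05 for CLEC2D and 2.49 for CLEC3B, against a median of 0.62 over the 13422 tested genes. Between 75.6% (CLEC14A) and 97.5% (CLEC2D) of the tested genes had a smaller SD than a given member that passed the filter. The comparison took no account of level. CLEC3B, which did not pass the filter, was at a count of 0 in 68 tumors and CLEC2D in 10.

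The first comparison asked whether the lectins differ between the trials. None of the 7 tested members passed the test under limma, and the medians were close. CLEC12A was at 2.25 CPM in COTC021 and 2.57 CPM in COTC022. CLEC2D was at 1.34 and 1.19 CPM, CLEC7A at 8.63 and 8.52 CPM, and CLEC5A at 2.93 and 3.15 CPM. CLEC1A stood at 7.29 and 8.55 CPM, CLEC14A at 32.6 and 36.1 CPM, CLEC11A at 164 and 159 CPM, and the untested CLEC3B at 0.187 and 0.0994 CPM. The ranges of the trials overlapped for every member.

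Fitted differences (COTC022 minus COTC021, limma with the library-name group as a covariate) ran from -0.22 for CLEC2D (SE 0.35) to 0.27 for CLEC11A (SE 0.17) on the log2 scale. Adjusted p ran from 0.6 to 0.945 and unadjusted p from 0.129 to 0.776, so no member passed at either level. Across all genes, 0.0149% were called in this comparison (2 of 13422, 0.00745% in each direction), with 1520 at an unadjusted p under 0.05. The edgeR fit called 131 genes and DESeq2 168, none of them a member, although DESeq2 gave no adjusted p for CLEC2D. For CLEC2D the edgeR difference was -0.86 and the DESeq2 difference -0.91. The 95% interval for CLEC2D, from -0.90 to 0.47, is the widest, and that for CLEC14A, from -0.22 to 0.34, the narrowest.

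The trial difference of CLEC2D took opposite signs in the library-name groups. It was 1.35 in the 50 doubled-separator libraries (adjusted p = 0.762, limma) and -0.96 in the other 136 (adjusted p = 0.228), against a range of adjusted p from 0.228 to 0.883 over its alternatives. An interaction of trial and library name, tested after these values were seen, gave 2.29 (SE 0.81, unadjusted p = 0.00542, adjusted p = 0.361) for CLEC2D and 1.13 (SE 0.56, unadjusted p = 0.045, adjusted p = 0.441) for CLEC12A. By limma, the tool used for it, 0 of 13422 genes passed that interaction at an adjusted p under 0.05 and 1466 at an unadjusted p under 0.05.

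The second question was how the members vary with each other. Of 28 pairs, 25 had a Pearson correlation past an adjusted p of 0.05 (permutation test, 100000 resamples, two-sided, adjusted over the 28 pairs), 19 positive and 6 negative, and 26 had a Spearman correlation past it. All 6 negative pairs involved CLEC11A. A correlation as weak as r = -0.15 (CLEC1A and CLEC11A) passed, and how often pairs of other genes pass was not tested. The number of called pairs therefore does not set the lectins apart. Within a trial or a group of libraries some of these calls were lost, and the number of pairs called was 15 in COTC021 alone and 15 in the 50 doubled-separator libraries alone.

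CLEC12A and CLEC2D formed the closest pair. Their correlation was r = 0.75 and rho = 0.74 (permutation p = 1e-05 each, the smallest that 100000 resamples can give, adjusted p = 2.8e-05 for r and 3.5e-05 for rho). It was r = 0.74 without the 2 tumors farthest from the median of CLEC12A, r = 0.73 in COTC021 and 0.76 in COTC022, and 0.83 and 0.72 in the doubled-separator and other libraries. Both genes lie in the chromosome 27 stretch, where CLEC1A and CLEC7A, also neighbours, had r = 0.21 (rho = 0.20, permutation p = 0.00363 and 0.00693, adjusted p = 0.00535 and 0.00928). In the doubled-separator libraries that value was 0.01, in the other libraries 0.27.

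The second close pair was endothelial and lies on separate chromosomes. CLEC1A and CLEC14A had r = 0.73 and rho = 0.75 (permutation p = 1e-05 each, adjusted p = 2.8e-05 and 3.5e-05), with r = 0.73 without the 2 farthest tumors. Within the trials r was 0.75 in COTC021 and 0.72 in COTC022, and within the library groups 0.78 and 0.72. CLEC3B followed this pair more than any other member, with r = 0.41 (rho = 0.41) to CLEC1A and r = 0.37 (rho = 0.44) to CLEC14A, each with an adjusted p = 2.8e-05 for r.

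The 3 myeloid receptors were related to each other at a lower level. CLEC7A and CLEC5A had r = 0.55 (rho = 0.49), CLEC12A and CLEC5A r = 0.55 (rho = 0.53), and CLEC12A and CLEC7A r = 0.55 (rho = 0.53), each with an adjusted permutation p = 2.8e-05 for r. Within the trials r lay between 0.47, for CLEC12A and CLEC7A in COTC021, and 0.62 for the same pair in COTC022. Within the library groups the lowest value was that of CLEC7A and CLEC5A in the doubled-separator libraries, at r = 0.37 (rho = 0.26), against 0.59 in the others. CLEC2D was much less related to CLEC7A (r = 0.26, rho = 0.26, adjusted p = 0.00112 and 0.00077) and to CLEC5A (r = 0.35, rho = 0.30, adjusted p = 2.8e-05 and 0.000112) than it was to CLEC12A; the difference between these correlations was not tested.

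CLEC11A ran against the leukocyte members. Its correlation was r = -0.46 (rho = -0.38) with CLEC2D and r = -0.32 (rho = -0.31) with CLEC12A, each with an adjusted permutation p = 2.8e-05 for r. Without the 2 farthest tumors the values were -0.37 and -0.26. For CLEC12A the value was -0.65 in the doubled-separator libraries and -0.21 in the others, and for CLEC2D -0.67 and -0.37. The relations to the other leukocyte members were weaker, with r = -0.28 (rho = -0.28, adjusted permutation p = 0.000484 and 0.000356) for CLEC5A and r = -0.19 (rho = -0.19, adjusted permutation p = 0.0111 and 0.0107) for CLEC7A. That of CLEC5A did not pass in COTC022 (r = -0.18) or the doubled-separator libraries (r = -0.15), and that of CLEC7A did not pass in COTC021 (r = -0.14) or the other libraries (r = -0.14).

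**Figure D2:**
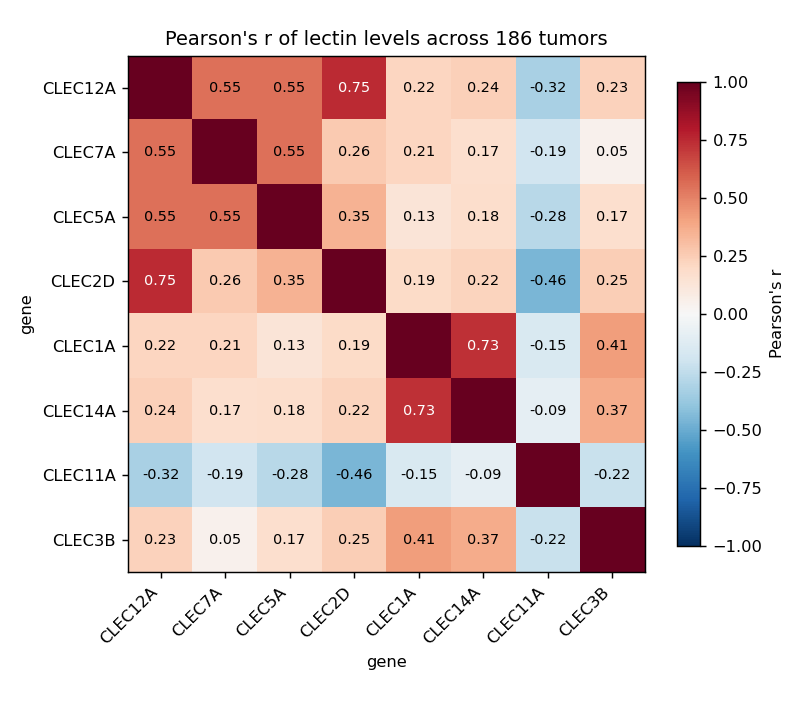
Pearson's r of TMM log2 CPM between each pair of the 8 measured lectins across 186 tumors, red positive and blue negative, genes on both axes. The 2 highest cells are CLEC12A with CLEC2D (0.75) and CLEC1A with CLEC14A (0.73), and the row of CLEC11A holds only negative values.

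The genes whose levels lay closest to each lectin were found among all tested genes, with Pearson's r over the 186 tumors. For comparison, the median r of a member with all tested genes lay between -0.02 and 0.01. CLEC2D was nearest to CD3E, the signalling chain of the T cell receptor complex, with r = 0.92 (0.92 in COTC021, 0.93 in COTC022). Next came IL2RB, a chain of the interleukin receptor of T and NK cells, with r = 0.89, and TBC1D10C, a lymphocyte regulator of calcium signalling, with r = 0.89. The study had grouped CLEC2D with CD3E, IL2RB and TBC1D10C in a signature derived from these same tumors, so their closeness is not independent evidence. CD3E, and CD2 and CD6 of that signature, are also in the T and NK cell marker list used below. The slope of CLEC2D on that score is therefore not independent evidence either.

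KLRB1, the lymphocyte receptor for which CLEC2D is the ligand, was near the limit of detection. It reached 10 counts in 18 tumors, was at 0 in 68, had a median of 0.0987 CPM and did not pass the filter. Its correlation with CLEC2D was r = 0.71 (rho = 0.64, permutation p = 1e-05 each, adjusted p = 2.67e-05 over the 8 members), with 0.70 in COTC021 and 0.71 in COTC022, 0.81 in the doubled-separator libraries and 0.66 in the others. Without the 2 tumors farthest from the median of CLEC2D it was 0.68. KLRB1 was also related to CLEC12A (r = 0.63, rho = 0.61, adjusted permutation p = 2.67e-05 each), and the difference between these correlations was not tested.

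CLEC12A was nearest to SASH3, a lymphocyte adaptor (r = 0.89), DLA-DMB, which loads peptides on MHC class II (r = 0.88), and C3AR1, the receptor of a complement fragment (r = 0.87). C3AR1 belongs to the GS-1 signature described below. CLEC7A was nearest to TYROBP, the adaptor of many activating myeloid receptors (r = 0.76), BTK, a kinase of B and myeloid cells (r = 0.74), and LRRC25 (r = 0.74). CLEC5A was nearest to FCGR1A, the high-affinity IgG receptor of myeloid cells (r = 0.72), NLRP1, an inflammasome sensor (r = 0.72), and ALDH3B1 (r = 0.67).

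Both endothelial lectins shared a neighbour. CLEC1A was nearest to PECAM1, the junction protein CD31 of endothelium (r = 0.88), ECSCR, an endothelial surface regulator (r = 0.85), and MYCT1 (r = 0.82). CLEC14A was nearest to MYCT1 (r = 0.88), TEK, the angiopoietin receptor (r = 0.86), and CCM2L, an endothelial signalling protein (r = 0.85). PECAM1 and TEK are also in the endothelial marker list used below.

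CLEC11A was nearest to SHANK1 (r = 0.65), C1QTNF6 (r = 0.63) and SP7, the transcription factor of osteoblasts also known as osterix (r = 0.62). SP7 is also in the osteoblast marker list used below. SHANK1 lies beside CLEC11A on chromosome 1, with 3228 bases between the annotated spans (106750887 to 106794971). Its level ranged from 0.253 to 23.4 CPM with a median of 5.20. The correlation was rho = 0.61 (permutation p = 1e-05 for r and rho), 0.61 without the 2 tumors farthest from the median of CLEC11A, 0.65 in COTC021 and 0.66 in COTC022, and whether reads of one gene are counted in the other was not tested. Among the other genes within 200 kb that passed the filter, r with CLEC11A ranged from -0.13 (MYBPC2) to 0.57 (LOC484356).

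The genes nearest to CLEC3B were PRG4, the joint lubricant lubricin (r = 0.80), MFAP5, a microfibril protein (r = 0.77), and ACKR2, a chemokine scavenger (r = 0.75). CLEC3B is at or near 0 in most tumors, so these values rest on the upper part of its range. The study had grouped PRG4, MFAP5 and ACKR2 in a signature derived from these same tumors, without CLEC3B. These neighbours are therefore not independent of each other. MFAP5 is also in the fibroblast marker list, as is PI16, which ranked 4 by closeness to CLEC3B (r = 0.75).

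**Figure D3:**
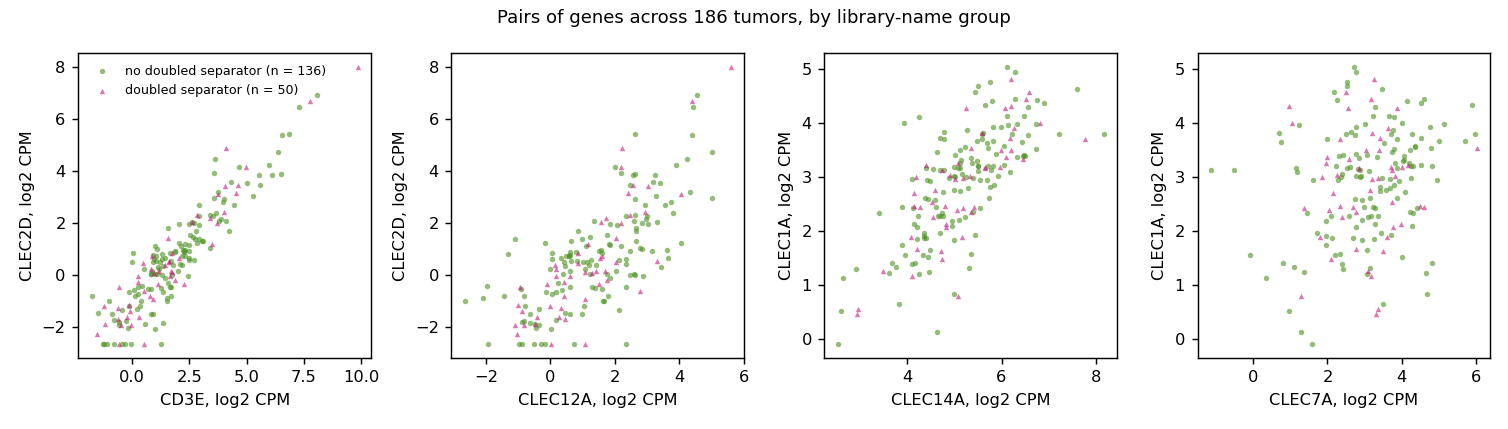
Each point is 1 tumor, axes are TMM log2 CPM, circles are the 136 libraries without and triangles the 50 with a doubled separator in the name. CLEC2D follows CD3E (r = 0.92) and CLEC12A (r = 0.75), CLEC1A follows CLEC14A (r = 0.73), and CLEC1A against its chromosomal neighbour CLEC7A (r = 0.21) forms a wide cloud.

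The study used GS-1, a signature from earlier work on canine osteosarcoma whose genes include leukocyte genes such as CD53, ITGAL and IKZF1. Here it enters as a continuous score, the mean z-score of a tumor over 26 of its genes, and the level of each gene was regressed on it. CLEC12A is itself a gene of GS-1 and was left out of the score, but its membership means that its slope is not independent evidence. The study drew the signature that holds CLEC2D from genes that differed between clusters of these same tumors. Many of those genes also differed between its GS-1 groups. The slope of CLEC2D on the GS-1 score is therefore not independent evidence either. The score had r = 0.88 with a score of 10 macrophage markers and r = 0.78 with a score of 7 T and NK cell markers.

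All 4 leukocyte lectins rose with the GS-1 score, both endothelial lectins rose slightly, and CLEC11A fell. Per 1 SD of the score, CLEC2D rose by 1.78 on the log2 scale (SE 0.08, adjusted p = 2.88e-54, limma), 3.44-fold. CLEC12A rose by 1.17 (SE 0.05, adjusted p = 1.74e-55), 2.25-fold. CLEC5A rose by 0.78 (SE 0.08, adjusted p = 9.54e-18) and CLEC7A by 0.55 (SE 0.07, adjusted p = 1.55e-13). The 95% intervals of CLEC2D (1.63 to 1.94) and CLEC12A (1.07 to 1.27) overlapped neither each other nor those of CLEC5A (0.63 to 0.93) and CLEC7A (0.42 to 0.68), which overlapped one another. These slopes are not scaled to the spread of each gene. By correlation with the score CLEC12A came first (r = 0.85, rho = 0.89), before CLEC2D (r = 0.81, rho = 0.76). CLEC5A (r = 0.59, rho = 0.57) and CLEC7A (r = 0.55, rho = 0.58) lay close together. Each had an adjusted permutation p = 2.87e-05 for r, and the differences between these correlations were not tested.

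CLEC11A fell by 0.59 per SD (SE 0.07, adjusted p = 3.57e-12, limma). CLEC1A rose by 0.23 (SE 0.07, adjusted p = 0.0039) and CLEC14A by 0.17 (SE 0.07, adjusted p = 0.0326). The call of CLEC14A was lost with edgeR (adjusted p = 0.138) and DESeq2 (0.104), without the low-count filter (0.0523), within each group of libraries and in COTC021, over a range from 0.00332 to 0.735. The call of CLEC1A was lost in the libraries without a doubled separator (adjusted p = 0.204) and in COTC021 (0.402), over a range from 0.000815 to 0.402.

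With this score 48.7% of all genes tested were called, 22.4% with a positive and 26.2% with a negative slope, against 6 positive and 1 negative of the 7 members. A call alone is therefore a common outcome. By size, 99.9% of the tested genes had a lower slope than CLEC2D, 99.2% than CLEC12A, 97.3% than CLEC5A, 95.7% than CLEC7A and 1.22% than CLEC11A, beside 88.7% for CLEC1A and 84.6% for CLEC14A. CLEC3B, fitted without the filter, had a slope of 0.51 (SE 0.21) and did not pass (adjusted p = 0.0556, limma).

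**Figure D4:**
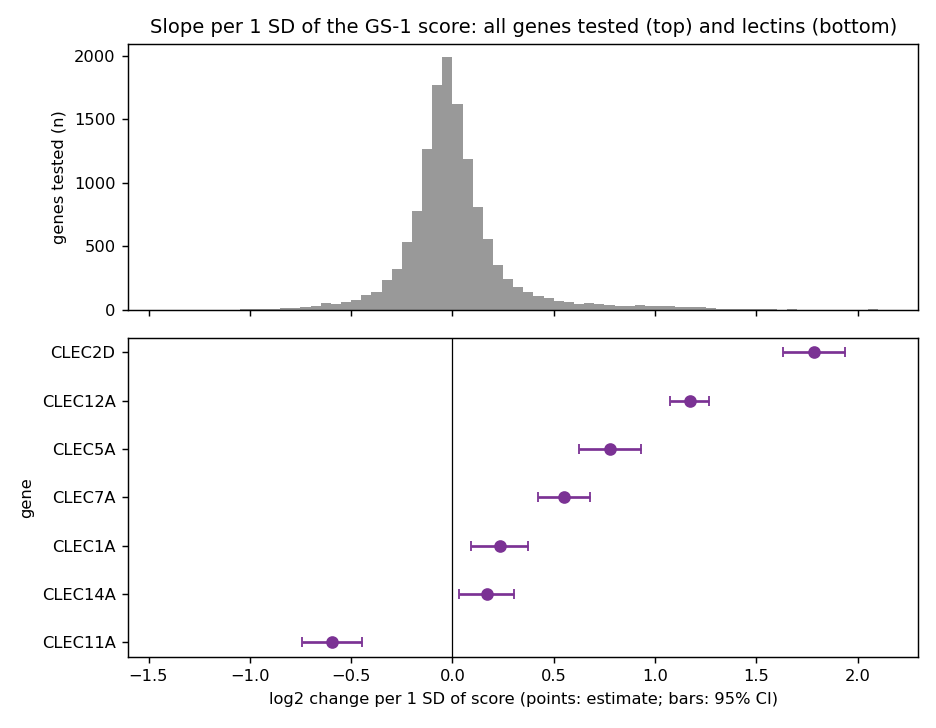
Top, the number of tested genes (y axis) at each slope on the GS-1 score (x axis, log2 change per 1 SD), and bottom, the same slope for the 7 tested lectins with 95% confidence intervals. CLEC2D (1.78) and CLEC12A (1.17) lie in the far right tail of all genes, CLEC1A (0.23) and CLEC14A (0.17) near the bulk, and CLEC11A (-0.59) in the left tail.

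The slopes of the leukocyte lectins were positive in both trials. CLEC2D had 1.80 in COTC021 and 1.69 in COTC022, CLEC12A 1.12 and 1.24, and CLEC7A 0.46 and 0.70. CLEC5A had 0.97 and 0.65, and the interaction of score and trial was -0.34 (SE 0.16, unadjusted p = 0.0342, adjusted p = 0.999, limma). By limma 0 of 13422 genes passed this interaction, 351 had an unadjusted p under 0.05, and edgeR called 2. CLEC5A also had a smaller slope in the doubled-separator libraries (0.52) than in the others (1.08).

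To separate cell types, 5 marker scores were fitted together, for T and NK cells, macrophages, endothelium, fibroblasts and osteoblasts, and each slope below is per 1 SD of its score with the other 4 held constant. Variance inflation of the scores lay between 1.21 and 1.59. The summed level of the markers ranged from 6.29 to 4044 CPM for T and NK cells, 111 to 7093 CPM for macrophages, 107 to 3100 CPM for endothelium and 459 to 15752 CPM for fibroblasts, each across all 186 tumors.

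The 4 leukocyte lectins were all called with a positive macrophage slope, whereas with the T and NK cell score CLEC2D and CLEC12A were called positive, CLEC7A negative and CLEC5A not at all. With the macrophage score, CLEC12A had a slope of 1.13 (SE 0.08), CLEC7A 1.08 (SE 0.07), CLEC5A 0.92 (SE 0.12) and CLEC2D 0.55 (SE 0.10), with adjusted p of at most 3.04e-06 (limma), against 33.1% of all genes called, 16.6% with a positive and 16.5% with a negative slope. CLEC1A (0.05), CLEC14A (-0.04) and CLEC11A (-0.19, adjusted p = 0.0568, and 0.0443 without the filter) did not pass. Each of the 4 calls remained under every alternative tried, with slopes from 0.32 (CLEC2D) to 1.27 (CLEC12A).

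With the T and NK cell score, CLEC2D had a slope of 1.40 (SE 0.08, adjusted p = 7.03e-41, limma) and CLEC12A 0.41 (SE 0.06, adjusted p = 1.23e-09), while CLEC7A had -0.39 (SE 0.06, adjusted p = 2.19e-07). CLEC5A had -0.13 (SE 0.10, 95% interval from -0.32 to 0.07), which overlaps that of CLEC7A, and the other 3 tested members did not pass either, while 13.8% of all genes were called, 8.1% with a positive and 5.68% with a negative slope. Thus at equal macrophage markers CLEC12A was higher and CLEC7A lower in tumors with more T and NK cell marker RNA, with 95% intervals from 0.30 to 0.53 and from -0.52 to -0.27. Markers of other leukocytes that are not in the joint model also moved with both positive genes. CLEC2D had r = 0.74 (rho = 0.67) with a dendritic cell score and r = 0.67 (rho = 0.47) with a B cell score of 1 marker, and CLEC12A r = 0.60 (rho = 0.55) and r = 0.55 (rho = 0.46), each with an adjusted permutation p = 2.87e-05 for r, and their part in these slopes was not tested. The slope of CLEC7A was -0.37 in COTC021, -0.38 in COTC022, -0.38 in the libraries without a doubled separator and -0.30 in the 50 with it, where it did not pass (adjusted p = 0.245, over a range from 1.17e-07). Without the other scores, the correlation of CLEC7A with the T and NK cell score was not negative and did not pass (r = 0.12, rho = 0.12, adjusted permutation p = 0.13 and 0.147). That of CLEC5A was positive and passed (r = 0.27, rho = 0.16, adjusted permutation p = 0.000703 and 0.0363).

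Osteoclast markers were related to CLEC7A, and no relation to CLEC12A passed the test. The correlation with a score of 6 osteoclast markers was r = 0.42 (rho = 0.41, permutation p = 1e-05 each, adjusted p = 2.87e-05 and 3.29e-05 over 112 relations) for CLEC7A and r = 0.07 (rho = 0.03, permutation p = 0.343 and 0.696, adjusted p = 0.38 and 0.75) for CLEC12A. For CLEC7A it was 0.44 without the 2 farthest tumors, 0.53 in COTC021, 0.33 in COTC022, and 0.31 and 0.45 in the doubled-separator and other libraries. The summed level of the 7 listed osteoclast markers ranged from 76.4 to 38971 CPM, and all 6 that passed the filter were themselves called with a negative T and NK cell slope in the joint model (median -0.75, limma). With this score added to the joint model after the values were seen, the slope of CLEC7A with T and NK cells was -0.35 (adjusted p = 1.56e-05, limma), that with macrophages 1.01 (adjusted p = 3.27e-25) and that with the osteoclast score itself 0.15 (adjusted p = 0.131, 22.5% of all genes called).

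With the endothelial score, CLEC14A had a slope of 0.82 (SE 0.04, adjusted p = 7.02e-46, limma) and CLEC1A 0.80 (SE 0.04, adjusted p = 2.74e-39), and these intervals overlapped. CLEC2D passed at 0.26 (SE 0.08, adjusted p = 0.0237), but not within either trial or either group of libraries, nor without the low-count filter, where adjusted p went up to 0.261. The other 4 did not pass, and 14.5% of all genes were called, 9.08% with a positive and 5.41% with a negative slope. Fat and muscle markers also moved with both genes, with r = 0.49 (rho = 0.53) and r = 0.34 (rho = 0.34) for CLEC1A and r = 0.38 (rho = 0.43) and r = 0.31 (rho = 0.36) for CLEC14A, adjusted permutation p of at most 5.46e-05 for r, and their part in these values was not tested. Only 2 of the 4 listed fat markers passed the filter. Both of these, and all 4 muscle markers, were themselves called with a positive endothelial slope (medians 0.59 and 1.05, limma).

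With the other scores held constant, the secreted CLEC11A rose with both scores of connective tissue. It had slopes of 0.63 (SE 0.07, adjusted p = 3.52e-13, limma) with the osteoblast score and 0.29 (SE 0.07, adjusted p = 0.00116) with the fibroblast score, against 33.7% of all genes called with the former (16.7% positive, 17.0% negative) and 35.1% with the latter (17.7% positive, 17.4% negative). The fibroblast slope did not pass in 2 of 7 alternatives (adjusted p up to 0.308). In the 50 doubled-separator libraries the osteoblast slope was 0.24 and did not pass (adjusted p = 0.34, over a range from 2.53e-14). CLEC11A alone correlated with the osteoblast score at r = 0.57 (rho = 0.53, adjusted permutation p = 2.87e-05 and 3.29e-05). Its correlation with the fibroblast score alone did not pass (r = 0.08, rho = -0.006, adjusted permutation p = 0.3 and 0.933).

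The same scores moved other members by less. CLEC5A had -0.33 with the osteoblast score (SE 0.10, adjusted p = 0.00396, limma) and CLEC1A -0.14 (SE 0.04, adjusted p = 0.00894). With the fibroblast score CLEC12A had 0.21 (SE 0.06, adjusted p = 0.00303), CLEC14A 0.10 (SE 0.04, adjusted p = 0.0473) and CLEC7A -0.15 (SE 0.06, adjusted p = 0.0401). Each of these 5 calls was lost in at least one subset of the libraries, and that of CLEC7A in all 7 alternatives (adjusted p from 0.0643 to 0.424).

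CLEC3B could be fitted only without the filter, an alternative added after its low level was known. It then had 1.16 with the fibroblast score (SE 0.17, adjusted p = 8.94e-09, limma), -0.92 with the osteoblast score (SE 0.18, adjusted p = 1.12e-05) and 0.81 with the endothelial score (SE 0.18, adjusted p = 0.000557). The slopes with T and NK cells (0.20) and macrophages (-0.48, adjusted p = 0.0886) did not pass. CLEC3B thus took the opposite sign to CLEC11A on the osteoblast score. Muscle markers moved with CLEC3B as well (r = 0.40, rho = 0.37, adjusted permutation p = 2.87e-05 and 3.29e-05), with a summed level from 0 to 46561 CPM over 4 markers. So did a score of 2 fat markers (r = 0.32, rho = 0.34, adjusted permutation p = 7.81e-05 and 3.29e-05). The part of muscle and fat markers in the values of CLEC3B was not tested.

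**Figure D5:**
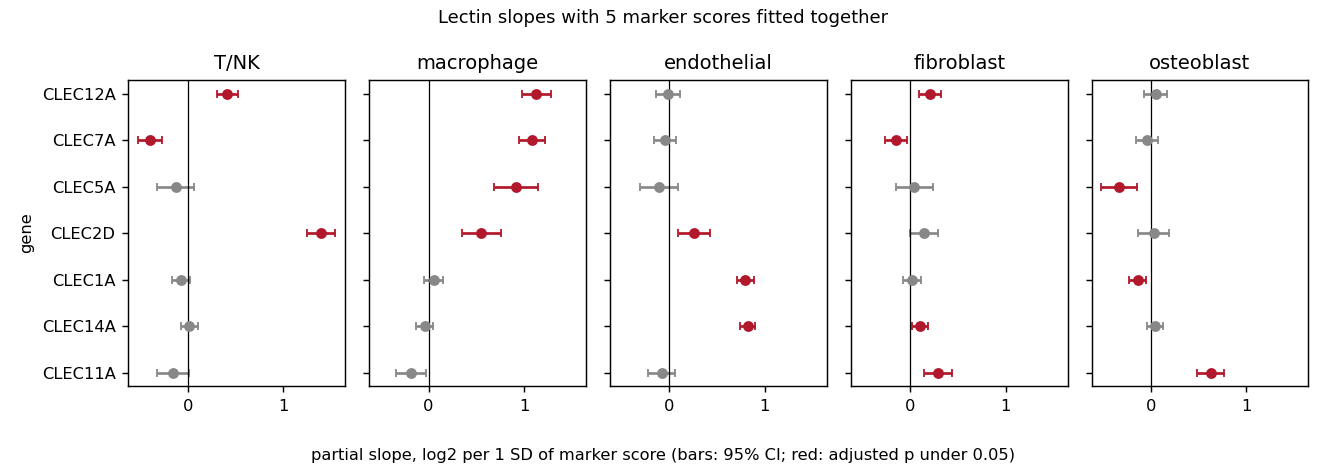
Partial slope of each of the 7 tested lectins (y axis) on 5 marker scores fitted together (panels; x axis, log2 change per 1 SD of score), with 95% confidence intervals, red where the adjusted p is under 0.05. The leukocyte lectins lie to the right in the macrophage panel, CLEC2D (1.40) and CLEC7A (-0.39) lie apart in the T/NK panel, and CLEC14A and CLEC1A lie at about 0.8 in the endothelial panel.

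Beyond the members, 22 of 53 listed genes with a C-type lectin domain passed the filter, and 11 had a positive and 4 a negative called GS-1 slope, beside 22.4% and 26.2% of all tested genes. Their median slope was 0.10 against -0.02 over all tested genes. Among the highest slopes were those of CD209, the dendritic and macrophage lectin DC-SIGN (1.41, SE 0.13), and CD72, an inhibitory B cell receptor (1.13, SE 0.06). The lowest were those of the cartilage proteoglycan ACAN (-0.88, SE 0.19), the scavenger receptor COLEC12 (-0.56, SE 0.07) and the collagen receptor MRC2 (-0.45, SE 0.07), with adjusted p of at most 4.85e-05 for these 5 genes (limma).

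Of 29 genes that act downstream of these receptors, 23 passed the filter, 18 had a positive and 0 a negative GS-1 slope past an adjusted p of 0.05 (limma), beside the same 22.4% and 26.2% of all tested genes, and their median was 0.34. The highest were FGR, a SRC-family kinase of myeloid cells (1.10, SE 0.04), NLRP3, an inflammasome sensor (0.94, SE 0.04), and PTPN6, the phosphatase recruited by inhibitory receptors (0.86, SE 0.03). In the joint model 14 of the 23 were called with a positive macrophage slope and 1 with a negative one, beside 16.6% and 16.5% of all tested genes. With the T and NK cell score the counts were 7 and 2, beside 8.1% and 5.68%.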

How the data were processed

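The authors prepared stranded mRNA libraries, trimmed reads with cutadapt, aligned them to GSD_1.0 with STAR 2.7.0f and quantified genes with RSEM 1.3.1. The values the authors deposited are unscaled expected counts, in which a read that maps to several genes is divided between them. They were rounded, and 3.07% were not whole. Of 198 columns, 12 matched no sample label and were not used.

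Genes were kept with the filterByExpr rule of edgeR 4.0.16 (a minimum count of 10, a minimum proportion of 0.5 and a large-sample setting of 5), scaled by TMM and tested by limma 3.58.1 after voom weighting in R 4.3.3, with trial and library-name group as covariates and Benjamini-Hochberg adjustment over all tested genes. Marker and GS-1 scores are mean z-scores of quantile-normalized log2(CPM + 2). Correlations used TMM log2 CPM with a prior count of 2, Python 3.11.15, numpy 2.4.6, scipy 1.17.1 and pandas 2.3.3. Figures were drawn with matplotlib 3.10.9. Alternatives used edgeR's quasi-likelihood fit, DESeq2 1.42.0, other size factors, no filter and subsets of the libraries. The fit was tested on simulated data.

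The members and lists were chosen with earlier results of these data known. Named are the members, for each tested member the 3 genes with the highest r (gene symbols only), the 3 highest and 3 lowest called GS-1 slopes of each list, and KLRB1. One gene that the rule names is not reported here. The genes nearest to CLEC3B, those beside CLEC11A and the spans on chromosome 27 lie outside this rule and were picked with their values in view. Sequence was not used here, and neither were clusters or survival.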

Additional observations from a re-analysis of the deposited data

How the results depend on the processing

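No paired analysis was possible because each tumor has its own patient number and the replicate numbers only name samples. The GS-1 slopes of CLEC12A, CLEC2D, CLEC7A, CLEC5A and CLEC11A kept direction and call in all 10 alternatives (other tools, size factors, filter, score and subsets), and the pairs and joint slopes were less stable in subsets, which hold fewer tumors. Levels near 10 counts limit CLEC12A, CLEC2D, CLEC5A and CLEC3B. The cause of the changes below was not tested.

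In the trial comparison 131 genes were called by edgeR, 168 by DESeq2, 0 with RLE size factors, 6 without the filter, 0 in the doubled-separator libraries and 5 in the others, against 2. Signs turned, without a call, in the doubled-separator libraries for CLEC12A (0.64), CLEC2D (1.35), CLEC5A (0.33) and CLEC11A (-0.32), in the others for CLEC1A (-0.0053) and CLEC14A (-0.12), with edgeR for CLEC5A (0.0647) and CLEC14A (-0.0594) and with DESeq2 for the same genes (0.061 and -0.0648). DESeq2 gave no adjusted p for CLEC2D. GS-1 slopes were called for 3415 genes in the doubled-separator libraries and 3054 in COTC021, against 6530. For the GS-1 slope by trial edgeR called 2 genes against 0, and gave CLEC5A 0.13.

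In the joint model, genes called with the T and NK cell score numbered 574 in COTC021, 980 in COTC022, 361 in the doubled-separator and 758 in the other libraries, against 1849. With the macrophage score they numbered 2027, 2740 and 1195 in the first 3 of these subsets and 1745 with the added osteoclast score, against 4441. With the endothelial score they numbered 703, 1082, 596 and 1143 in the 4 subsets, against 1945. With the fibroblast score they numbered 2475, 2459 and 1000 in the first 3, against 4708. With the osteoblast score they numbered 2030, 2857 and 503 in the first 3 and 10398 without the filter, against 4527.

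Uncalled joint slopes also turned sign. With T and NK cells these were CLEC5A in COTC021 (0.14) and the other libraries (0.0109) and CLEC14A in COTC021 (-0.0069). With endothelium they were CLEC12A in COTC021 (0.0442) and the other libraries (0.0728), CLEC7A in the other libraries (0.011), CLEC5A in the doubled-separator libraries (0.14) and CLEC11A in COTC022 (0.018). With fibroblasts they were CLEC2D in COTC021 (-0.14) and the other libraries (-0.0749), CLEC5A in COTC021 (-0.0398), COTC022 (-0.0452), the doubled-separator (-0.0558) and other libraries (-0.0793) and with the osteoclast score (-0.0193), and CLEC1A in COTC022 (-0.0479) and the doubled-separator libraries (-0.0709). With osteoblasts they were CLEC12A in COTC022 (-0.0491), CLEC2D in COTC021 (-0.17), the other libraries (-0.13) and with scores from TMM log2 CPM (-0.0067), CLEC7A in COTC021 (0.0084), the doubled-separator libraries (0.0079) and with scores from TMM log2 CPM (0.0013), and CLEC14A in COTC021 (-0.0004). The slope of CLEC2D with fibroblasts, uncalled in all tumors, passed in COTC022 (0.52) and without the filter (0.24).

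Of the pairs, 15 were called in COTC021 and 15 in the doubled-separator libraries, against 25. The sign turned for CLEC7A and CLEC3B in COTC022 (r = -0.0373) and the doubled-separator libraries (r = -0.17), and for CLEC7A and CLEC14A in the latter (r = -0.14).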

Other observations

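Several lectin-like genes between CLEC2D and CLEC7A on chromosome 27 did not pass the low-count filter and entered no comparison. CD69, an early activation antigen of lymphocytes, reached 10 counts in 88 tumors and had r = 0.80 with CLEC2D, 0.71 with CLEC12A, 0.34 with CLEC7A and 0.20 with CLEC1A, across the 186 tumors. CLEC2B reached 10 counts in 88 tumors and had r = 0.76, 0.71, 0.45 and 0.19 with the same genes. KLRF1, an NK cell receptor, reached 10 counts in 10 tumors and had r = 0.65 with CLEC2D. These values describe libraries with few counts and carry no test.

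CLEC12B, an inhibitory myeloid receptor, reached 10 counts in 24 tumors and had r = 0.38 with CLEC7A, 0.06 with CLEC12A and -0.10 with CLEC2D. CLEC1B, known from platelets, reached 10 counts in 39 tumors. It had r = 0.72 with CLEC12A and 0.71 with CLEC2D, above its r = 0.30 with CLEC1A, whose span it overlaps, and the differences were not tested.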
